A study of Mus musculus with 7 samples.

Results

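Cytochrome P450 genes (Cyp) encode haem-containing monooxygenases, which use molecular oxygen and electrons from partner proteins to oxidise small molecules. Families 1 to 3 mainly act on drugs, toxins and steroids, family 4 on fatty acids, and the higher-numbered families on cholesterol, bile acids, steroid hormones, vitamin D and retinoic acid. The hepatocyte of the adult liver is known for its high content of these enzymes, whereas fibroblasts carry few of them. All genes whose symbol begins with Cyp and a digit were taken, 73 of the 18193 genes measured, and each was read by 1 probe set, the one with the highest mean over all arrays.

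The data are 7 Affymetrix whole-genome mouse arrays, all of cells labelled as of the C57BL/6 strain, which the study's methods give as C57BL/6J for MEF and pHep. Mouse embryonic fibroblasts (MEF, n = 4) were untreated and not reprogrammed, and came from mid-gestation embryos without the head and inner organs. iHepSCs (n = 2) were reprogrammed from MEF by lentivirus carrying Oct4 and Hnf4α and expanded from picked colonies in HEP medium, which by the labels holds dexamethasone, nicotinamide, HGF and EGF. They were measured once at P3 (replicate 1) and once at P20 (replicate 2), and both arrays may come from the same clone. The labels name none for them, and the study's methods speak of clones, of which iHepSC-C3 was the one taken for detailed work. Primary hepatocytes (pHep, n = 1) were isolated by collagenase perfusion from 6-week-old mice, which the study's methods give as male, and were not reprogrammed. The labels give HEP medium for them, whereas the study's methods describe plating in Williams' medium E for a few hours before RNA was taken. MEF were kept in serum medium, so that medium and cell type cannot be told apart. Nothing says that replicates were separate cultures, and a p-value here reflects no more than how far these arrays spread, which may be technical spread.

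The values are log2 expression levels after RMA, the authors' background correction, normalization and summary. On this scale a difference of 1 is 2-fold, array medians lay between 6.28 and 6.33, and levels of different probe sets are not comparable. MEF replicate 1 stood apart, with correlations of 0.960 to 0.961 to the other MEF arrays, which correlated at 0.997 among themselves. The mean level of 8 hepatocyte markers was 5.67 to 5.89 on the MEF arrays, 9.01 at P3, 9.16 at P20 and 12.9 on pHep. Of these markers, Alb reached 13.74 at P3 and 14.39 at P20 against 15.13 on pHep, while Serpina1b at 4.91 at P3 and 4.99 at P20 and Tat at 6.16 at P3 and 6.43 at P20 were at or near the MEF levels of 4.79 to 5.37 and 6.06 to 6.60. Markers of other cells were present too. The mean of 4 cholangiocyte markers was 7.41 to 8.31 in MEF, 10.6 at P3, 10.4 at P20 and 9.78 on pHep. These markers did not move alike. Krt7 was higher than in MEF in both cell types, Krt19 in iHepSCs, and Sox9 was higher on pHep and lower in iHepSCs. Epcam was lower on pHep, at 7.34 against 8.16 to 8.32 in MEF, and not called in iHepSCs, at 8.04 at P3 and 8.14 at P20. The pHep array also carried macrophage markers. Their mean over 8 genes was 8.93 there, against 6.56 to 7.16 in MEF, and 6 of the 8 were higher than in MEF, led by Vsig4 at 11.57 against 4.96 to 5.51 in MEF. The fibroblast marker mean over 7 genes was 11.8 to 13.2 in MEF, 6.00 at P3, 5.92 at P20 and 8.46 on pHep. The part of these other cells in the results was not tested, and in bulk RNA fewer cells of a type and less RNA per cell cannot be told apart.

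The Cyp genes were first compared between iHepSCs and the parental fibroblasts. Cyp3a13, Cyp27a1, Cyp2c65, Cyp2s1 and Cyp2c68 rose the most, by 4.35 to 5.53 on the log2 scale, and Cyp1b1 fell the most, by 6.02. By limma, with p-values adjusted over all genes and a threshold of 0.05, 16 of the 73 were higher in iHepSCs, 7 were lower and 50 were not called. Over all genes, 18.2% were higher and 13.4% were lower, so that the share of higher Cyp genes (21.9%) was close to that background. The median difference of the 73 genes was 0.126, against 0.009 over all genes. Both iHepSC arrays lay above all 4 MEF arrays for 23 Cyp genes and below them for 11, where 26.9% and 23.7% of all genes did so. None of the 23 called genes overlapped between the groups, which the call itself makes likely and which adds no support to it.

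On the pHep array the family moved much more widely. Here 32 of the 73 Cyp genes exceeded MEF, 4 fell below and 37 were not called, where 14.8% of all genes were higher and 15.5% lower. That is 43.8% of the family higher, and 5.48% lower. The median difference was 0.173, against -0.132 over all genes. Between the liver-related cells, 7 Cyp genes were higher in iHepSCs than on pHep and 21 were lower, against 9.26% and 7.89% of all genes, which gives 9.59% and 28.8% of the family. The pHep group has 1 array, adds nothing to the estimate of spread, and its spread is taken from MEF and iHepSCs. At a level of 6 or more stood 21 to 23 Cyp genes on each MEF array, 27 on each iHepSC array and 41 on the pHep array, and 26 of the 73 lay under 6 on every array.

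**Figure D1:**
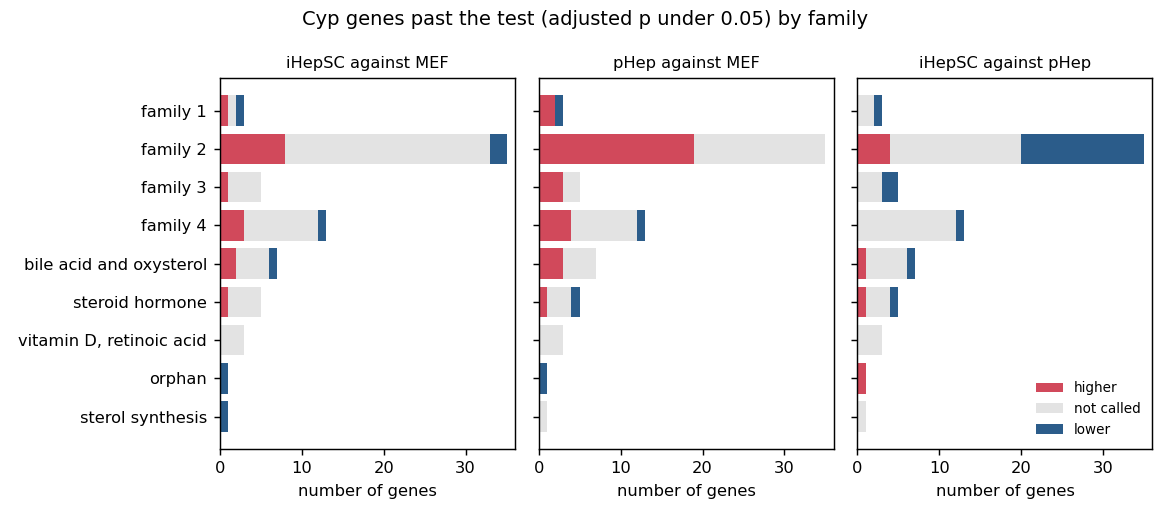
Number of Cyp genes (horizontal axis) higher, lower or not called by limma at an adjusted p under 0.05, by family or role (rows). The panels set iHepSC beside MEF, pHep beside MEF and iHepSC beside pHep. Family 2, with 35 genes, holds 19 of the 32 genes higher on pHep and 15 of the 21 genes lower in iHepSC than on pHep. Under centring on Gapdh the 16 higher and 7 lower genes of the first panel become 25 and 3.

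Some counts depended on single arrays. Without MEF replicate 1, the genes higher in iHepSCs numbered 25 in place of 16, and those lower on pHep 10 in place of 4. The genes lower in iHepSCs than in MEF numbered 4 without MEF replicate 3 or MEF replicate 4, 3 without P3 and 2 without P20, in place of 7. The genes higher in iHepSCs than on pHep numbered 3 without MEF replicate 2, MEF replicate 3 or P3 and 4 without MEF replicate 4, in place of 7. Of the 23 calls between iHepSCs and MEF, 15 held whichever replicate was left out. The other 8 were Cyp4a12a, Cyp2j9, Cyp2r1, Cyp11b2, Cyp4v3, Cyp20a1, Cyp39a1 and Cyp51, and all 8 were lost without P20, 6 without P3, 5 without MEF replicate 3, 4 without MEF replicate 4 and 3 without MEF replicate 2. Centring each array on Gapdh, which moved the median difference of all genes between iHepSCs and MEF from 0.009 to 0.499, gave 25 genes higher and 3 lower in iHepSCs. On pHep the same centring gave 27 genes higher in place of 32 and 2 lower in place of 4, as the calls of Cyp7a1, Cyp2b10, Cyp2c55, Cyp2c65, Cyp4f15, Cyp4f39 and Cyp11a1 were lost. It gave 15 genes lower in iHepSCs than on pHep in place of 21, without Cyp2c23, Cyp2c37, Cyp2c50, Cyp2c68, Cyp4f13 and Cyp7a1.

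The 73 genes fell into groups by where they differed from MEF. There were 12 genes higher in both iHepSCs and pHep, 4 higher in iHepSCs and not called on pHep, and 18 higher on pHep and not called in iHepSCs. Lower in at least 1 of the cell types were 9 genes, and 30 were called in neither. Both comparisons use the same 4 MEF arrays, so their values are given side by side without a correlation. The 12 genes higher in both had differences of 0.92 to 5.53 in iHepSCs, with a median of 3.44, and of 0.93 to 6.47 on pHep, with a median of 3.81. The 18 genes higher on pHep alone had differences of 0.72 to 7.29 there, with a median of 3.15. In iHepSCs the same 18 genes lay between -0.13 and 0.55. For 15 of the 18 the level in iHepSCs was lower than on pHep by the test of that difference itself, and for Cyp2b10, Cyp2c55 and Cyp4f15 that difference was not called.

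**Figure D2:**
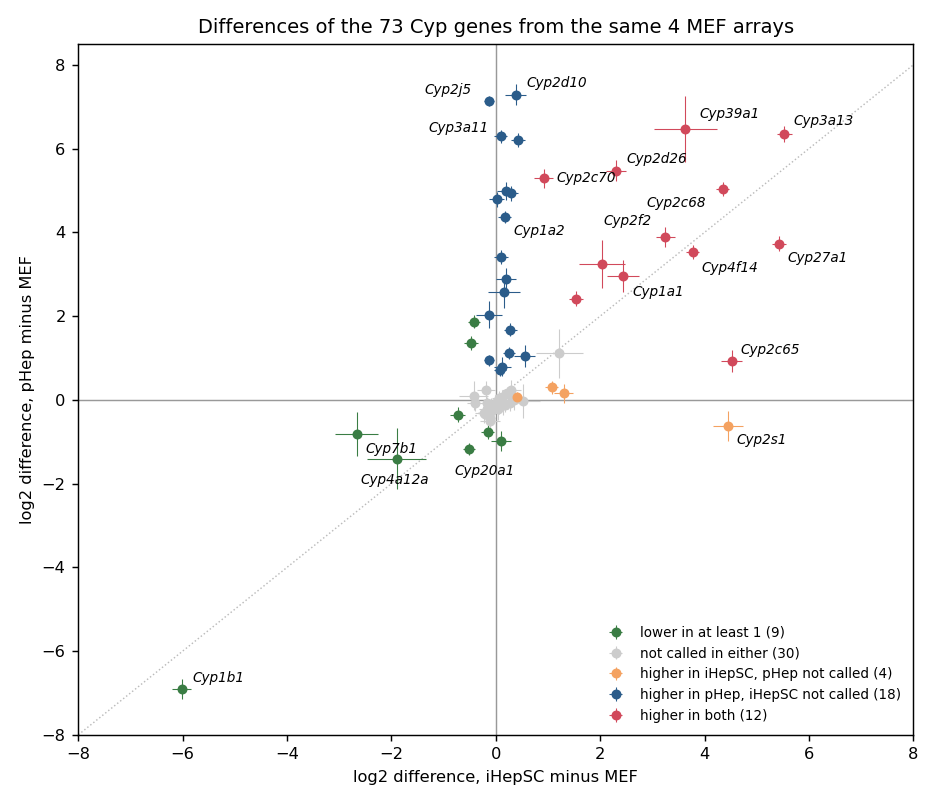
Difference from the mean of the 4 MEF arrays for each of the 73 Cyp genes, iHepSC on the horizontal axis and pHep on the vertical axis, both on the log2 scale, with bars of 1 limma standard error and colours by call. The dotted line marks equal differences. The 18 genes higher on pHep only stand in a column within -0.13 and 0.55 of the MEF level in iHepSC, Cyp2s1 and Cyp2c65 lie far to the right and low, and Cyp1b1 lies low in both. Cyp2j9 and Cyp2r1, lower in iHepSC and higher on pHep, are the green points above 0, and their iHepSC differences turn sign under centring on Gapdh.

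Family 1 holds the enzymes best known as targets of the aryl hydrocarbon receptor, and its 3 genes took 3 different courses. Cyp1b1, which oxidises oestradiol and aromatic hydrocarbons outside the liver, had levels of 12.89, 12.98, 12.97 and 12.98 on MEF replicates 1 to 4, 7.27 at P3 and 6.61 at P20, and 6.05 on pHep. Every MEF array was thus far above every other array, and the difference was -6.02 ± 0.19 (SE; adjusted p = 4.72e-06) in iHepSCs and -6.91 ± 0.24 (adjusted p = 1.3e-05) on pHep. It was the largest fall in the family. Of its other probe sets 1 fell by 7.55 in iHepSCs, and the third, at 4.40 to 5.09 in MEF, differed by -0.03.

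Cyp1a1, which oxidises polycyclic aromatic hydrocarbons, stood at 5.40, 5.51, 5.38 and 5.23 in MEF, 7.25 at P3 and 8.39 at P20, and 8.34 on pHep. The iHepSC arrays were above all MEF arrays, and P20 was at the pHep level while P3 was below it. The difference from MEF was 2.44 ± 0.30 in iHepSCs (adjusted p = 0.0016) and 2.96 ± 0.39 on pHep (adjusted p = 0.00269). Cyp1a2, its neighbour and the main family 1 enzyme of adult liver, was at 5.07, 5.37, 5.17 and 5.08 in MEF and 5.34 at P3 and 5.34 at P20, within the range of MEF, and at 9.54 on pHep. Its difference was 0.17 ± 0.12 in iHepSCs, which was not called, and 4.37 ± 0.15 on pHep (adjusted p = 1.3e-05), and iHepSCs were lower than pHep by -4.20 ± 0.17 as a signed difference (adjusted p = 2.9e-05).

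The 250 bases before the start of these genes are shown because the 3 courses can be set beside the letters GCGTG, the core to which the aryl hydrocarbon receptor and its partner bind. Sequences are from a table of RefSeq promoters on GRCm38.p6, which was used for the 52 of the 73 Cyp genes it lists, and run 5′ to 3′ on the gene's strand up to the base before the start. Capitals mark GCGTG or, on the other strand, CACGC.
Cyp1a1: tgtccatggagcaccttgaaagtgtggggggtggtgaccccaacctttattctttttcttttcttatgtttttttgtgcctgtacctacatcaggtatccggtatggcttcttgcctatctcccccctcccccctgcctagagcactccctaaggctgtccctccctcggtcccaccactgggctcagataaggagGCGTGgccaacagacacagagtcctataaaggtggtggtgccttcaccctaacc
Cyp1a2: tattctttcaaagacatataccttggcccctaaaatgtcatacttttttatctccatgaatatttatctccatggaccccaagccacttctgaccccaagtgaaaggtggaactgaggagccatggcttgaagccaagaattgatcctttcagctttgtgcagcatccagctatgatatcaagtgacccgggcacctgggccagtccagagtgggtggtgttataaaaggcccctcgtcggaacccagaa
Cyp1b1: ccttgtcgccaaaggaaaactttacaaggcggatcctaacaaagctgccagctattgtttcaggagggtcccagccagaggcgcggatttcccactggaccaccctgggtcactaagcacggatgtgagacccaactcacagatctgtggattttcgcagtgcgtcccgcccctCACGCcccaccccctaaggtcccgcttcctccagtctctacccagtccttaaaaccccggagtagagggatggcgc
The windows are chr9:57697363-57697612, plus strand, for Cyp1a1, chr9:57683656-57683905, minus strand, for Cyp1a2, and chr17:79715062-79715311, minus strand, for Cyp1b1. The core was found 54 bases before the start of Cyp1a1, on the gene's strand, and 76 bases before that of Cyp1b1, on the other strand. It was not in the window of Cyp1a2. Bases further from the start were not searched, so the windows cannot show whether a core lies there. Within the windows the core stood in 13 of the 52 Cyp genes (25%) and in 30.9% of 27025 genes of the table. These are matches of letters and were not tested as binding sites. The window of Cyp1b1 had 12 CpG dinucleotides, and those of Cyp1a1 and Cyp1a2 had 3 each.

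Family 2 oxidises drugs, steroids and fatty acids and is the largest family here, with 35 genes. In iHepSCs 8 of them rose over MEF and 2 fell, and on pHep 19 rose and none fell. In iHepSCs this was 22.9% higher and 5.71% lower, against 18.2% and 13.4% of all genes. The share of higher genes in iHepSCs was thus close to that background. On pHep 54.3% of the family was higher, where 14.8% of all genes were higher and 15.5% lower. The genes that rose in iHepSCs were mostly of the Cyp2c and Cyp2d subfamilies, together with Cyp2s1 and Cyp2f2. Many family 2 genes are close copies of each other, and a probe set named for 1 gene may also read its neighbours.

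**Figure D3:**
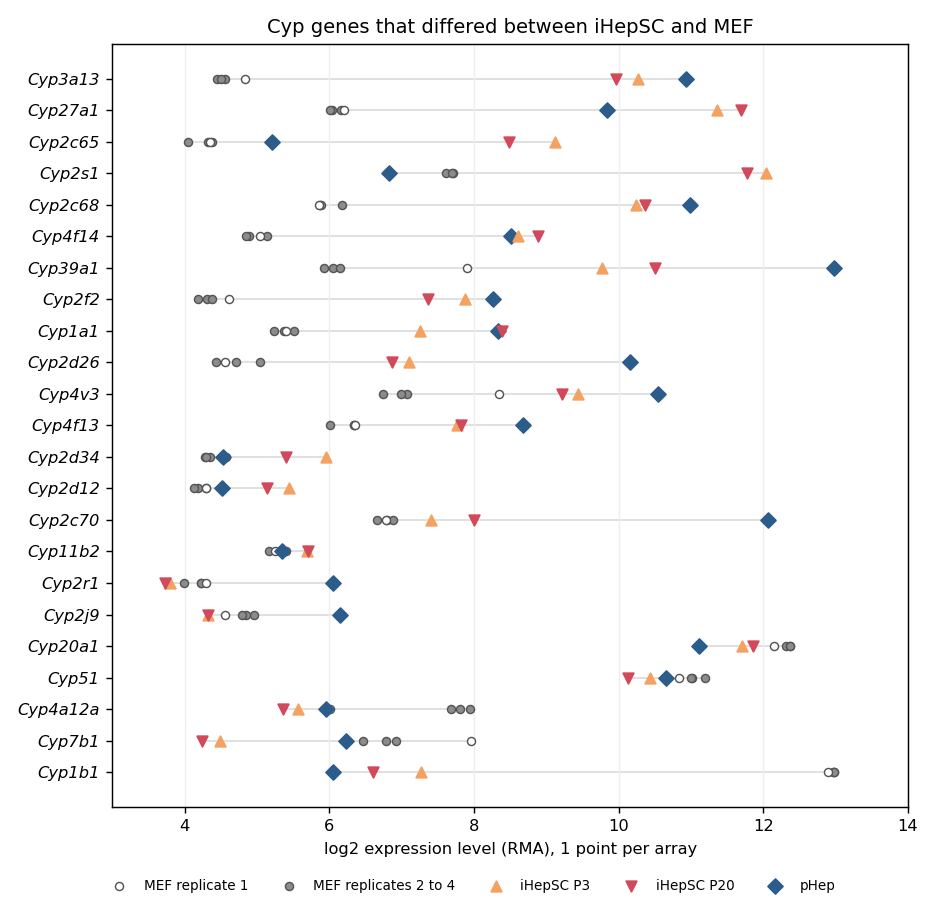
Levels of the 23 Cyp genes called between iHepSC and MEF, 1 point per array on the log2 scale (horizontal axis), genes ordered by their difference (rows), with MEF replicate 1 as an open circle. The 16 upper genes have both iHepSC arrays above all MEF arrays and the 7 lower genes have both below. The falls of Cyp2j9 and Cyp2r1 turn sign under centring on Gapdh.

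Cyp2s1, an enzyme known from epithelia of lung and gut, was high in iHepSCs and not on pHep. Its levels were 6.82, 7.71, 7.61 and 7.69 in MEF, 12.03 at P3 and 11.78 at P20, and 6.83 on pHep, which lay beside MEF replicate 1 and below the other MEF arrays. It was higher in iHepSCs than in MEF by 4.45 ± 0.28, a 21.8-fold difference (adjusted p = 9.18e-05), and higher than on pHep by 5.08 ± 0.40 (adjusted p = 0.000429). Cyp2c65, which metabolises arachidonic acid and is known from the gut, showed a like order with 4.36, 4.33, 4.05 and 4.37 in MEF, 9.12 at P3 and 8.48 at P20, and 5.20 on pHep. It was higher in iHepSCs than in MEF by 4.52 ± 0.20 (adjusted p = 2.11e-05) and higher than on pHep by 3.60 ± 0.29 (adjusted p = 0.000459). It is read only by probe sets that the array design marks as shared by several transcripts. Its smaller rise on pHep, 0.93 ± 0.26 (adjusted p = 0.0415), was lost without MEF replicate 2, 3 or 4.

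Cyp2c68 came near the pHep level in iHepSCs, at 5.85, 5.88, 5.89 and 6.17 in MEF, 10.24 at P3 and 10.36 at P20, and 10.99 on pHep. The rise was 4.35 ± 0.13 in iHepSCs (adjusted p = 3.84e-06) and 5.04 ± 0.16 on pHep (adjusted p = 1.11e-05). The remaining gap to pHep, -0.69 ± 0.18, passed the test with an adjusted p of 0.0491 and was lost without P3, P20, MEF replicate 2 or MEF replicate 3. Cyp2c70, the enzyme that makes muricholic acids in mice, moved a short way in iHepSCs and a long way on pHep. It stood at 6.78, 6.79, 6.66 and 6.88 in MEF, 7.40 at P3 and 7.99 at P20, and 12.07 on pHep, with a rise of 0.92 ± 0.18 in iHepSCs (adjusted p = 0.01) and of 5.29 ± 0.23 on pHep (adjusted p = 2.92e-05).

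Of the 11 Cyp2c genes, 3 were higher in iHepSCs and 8 on pHep, none was lower in either, and 6 were lower in iHepSCs than on pHep. The shares higher in iHepSCs and on pHep were 27.3% and 72.7%, against 18.2% and 14.8% of all genes. Lower in iHepSCs than on pHep were 54.5%, against 7.89% of all genes. Cyp2c29, an arachidonic acid epoxygenase, had 5.10, 5.12, 5.44 and 5.02 in MEF, 5.12 at P3 and 5.26 at P20, and 9.96 on pHep. Its iHepSC arrays lay within the range of MEF, and the pHep difference was 4.79 ± 0.19 (adjusted p = 1.89e-05). Cyp2c37, of the same activity, was at 3.78 to 4.07 in MEF, 4.12 at P3 and 4.25 at P20, and 5.58 on pHep, a difference of 1.68 ± 0.15 on pHep (adjusted p = 0.000626) and of 0.28 ± 0.12 in iHepSCs, which was called only without MEF replicate 1. Cyp2c23, Cyp2c50 and Cyp2c55 were also higher on pHep alone, by 2.59, 1.12 and 1.04, of which that of Cyp2c55 was lost without any 1 array other than MEF replicate 1. Cyp2c38, Cyp2c39 and Cyp2c54 were called in no comparison.

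The 3 Cyp2c genes that rose in iHepSCs had a promoter in the RefSeq table, and each window held the letters CAAAGTCCA, the motif known for HNF4. The windows are printed because Hnf4α is 1 of the 2 factors used for reprogramming, with the motif in capitals.
Cyp2c65: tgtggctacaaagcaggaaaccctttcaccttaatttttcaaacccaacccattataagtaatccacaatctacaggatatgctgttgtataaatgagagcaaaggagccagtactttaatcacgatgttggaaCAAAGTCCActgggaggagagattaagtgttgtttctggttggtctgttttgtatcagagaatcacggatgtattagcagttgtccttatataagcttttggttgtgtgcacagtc
Cyp2c68: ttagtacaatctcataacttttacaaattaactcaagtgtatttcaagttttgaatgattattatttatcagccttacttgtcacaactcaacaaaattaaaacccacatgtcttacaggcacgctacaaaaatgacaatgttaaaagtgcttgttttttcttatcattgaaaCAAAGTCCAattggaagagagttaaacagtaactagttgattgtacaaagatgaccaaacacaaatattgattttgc
Cyp2c70: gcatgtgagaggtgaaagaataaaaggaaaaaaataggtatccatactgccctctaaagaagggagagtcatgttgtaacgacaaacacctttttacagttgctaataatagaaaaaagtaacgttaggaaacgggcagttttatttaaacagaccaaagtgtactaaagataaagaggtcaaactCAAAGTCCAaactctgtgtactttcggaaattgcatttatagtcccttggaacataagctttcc
They lie at chr19:39060756-39061005, plus strand, at chr19:39741102-39741351, minus strand, and at chr19:40187287-40187536, minus strand, respectively, with the motif beginning 116, 77 and 64 bases before the start. On either strand the motif was in 6 of 52 Cyp genes (11.5%), against 122 of 27025 genes (0.451%). By call, it was in 3 of the 11 genes higher in both cell types, 1 of the 14 higher on pHep alone, 2 of the 19 called in neither, not in the 1 higher in iHepSCs alone, and none of the 7 lower in either. The others are Cyp3a11, Cyp3a16 and Cyp8b1, of which Cyp3a16 and Cyp8b1 were called nowhere. The Cyp2c genes with the motif are related and stand in 1 stretch of the genome, and so do Cyp3a11 and Cyp3a16 in another. The 6 genes are therefore not independent counts. The octamer ATGCAAAT, the motif of Oct4, was in none of the 52, against 1.81% of all genes. These matches are descriptions and do not show binding.

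Among the 8 Cyp2d genes, which oxidise many basic drugs, 3 were higher in iHepSCs and 4 on pHep, and only Cyp2d26 was in both sets. The shares were 37.5% and 50%, against 18.2% and 14.8% of all genes. Cyp2d26 stood at 4.56, 4.71, 5.04 and 4.43 in MEF, 7.10 at P3 and 6.86 at P20, and 10.16 on pHep. The iHepSC arrays were between MEF and pHep, with a rise of 2.30 ± 0.19 (adjusted p = 0.000287) against 5.48 ± 0.25 on pHep (adjusted p = 3.25e-05). Cyp2d34 and Cyp2d12 rose from dim levels in iHepSCs alone. Cyp2d34 was at 4.29 to 4.57 in MEF, 5.96 at P3 and 5.40 at P20, and 4.53 on pHep, a difference of 1.30 ± 0.18 from MEF (adjusted p = 0.00256). Cyp2d12 was at 4.12 to 4.29 in MEF, 5.44 at P3 and 5.14 at P20, and 4.52 on pHep, a difference of 1.07 ± 0.12 (adjusted p = 0.00112). Both stayed under 6 on every array, and their differences from pHep, 1.15 and 0.77, were lost without MEF replicate 2, 3 or 4 or without P3.

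The largest rise of the whole family on pHep was that of Cyp2d10. Its levels were 4.31, 4.64, 4.88 and 4.71 in MEF, 4.82 at P3 and 5.21 at P20, and 11.93 on pHep. P3 lay within the MEF range and P20 just above it, and the pHep difference was 7.29 ± 0.25, or 156-fold (adjusted p = 1.29e-05). Cyp2d9 had 5.17 to 5.54 in MEF, 5.78 at P3 and 5.78 at P20, and 11.56 on pHep, with a pHep difference of 6.21 ± 0.17 (adjusted p = 6.85e-06). Its iHepSC difference of 0.42 ± 0.13 had an adjusted p of 0.0512 and passed the threshold without MEF replicate 1, with the filter at 6, over the mean of all probe sets, with quantile normalization again and under centring on the median or on Gapdh. Cyp2d22 was at 5.23 to 5.57 in MEF, 5.64 at P3 and 5.47 at P20, and 8.86 on pHep, higher on pHep by 3.41 ± 0.17 (adjusted p = 5.24e-05).

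In the rest of family 2, Cyp2f2, which activates naphthalene in lung and liver, was high in both cell types. It stood at 4.61, 4.31, 4.19 and 4.38 in MEF, 7.88 at P3 and 7.37 at P20, and 8.26 on pHep, with a rise of 3.25 ± 0.19 in iHepSCs (adjusted p = 6.1e-05) and 3.88 ± 0.24 on pHep (adjusted p = 0.000111). The Cyp2j genes encode epoxygenases of arachidonic acid, and none of the 5 was higher in iHepSCs, where 18.2% of all genes were. Cyp2j5 split the samples widely, at 4.20, 4.08, 4.01 and 4.11 in MEF, 4.005 at P3 and 3.95 at P20, and 11.24 on pHep, a difference of 7.14 ± 0.12 on pHep (adjusted p = 3.82e-06) and of -7.27 ± 0.14 for iHepSCs against pHep (adjusted p = 4.52e-06). Cyp2j6 was at 7.65 to 8.22 in MEF, 8.23 at P3 and 7.89 at P20, and 10.75 on pHep. A second, dimmer probe set of Cyp2j6 was higher by 1.75 in iHepSCs, where the one used differed by 0.20. On that dimmer probe set MEF replicate 1, at 7.07, was near P3 at 7.10 and P20 at 7.29, and the other MEF arrays were at 4.68 to 5.08. Cyp2a12, which hydroxylates steroids, was at 6.30 to 6.69 in MEF, 6.78 at P3 and 6.92 at P20, and 11.49 on pHep, higher on pHep by 4.93 ± 0.19 (adjusted p = 1.74e-05).

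A pair of family 2 genes was lower in iHepSCs and higher on pHep, from dim levels. Cyp2r1, a vitamin D 25-hydroxylase, was at 3.98 to 4.29 in MEF, 3.80 at P3 and 3.73 at P20, and 6.05 on pHep, differing by -0.41 ± 0.12 in iHepSCs (adjusted p = 0.0405), which turned to 0.08 under centring on Gapdh. Cyp2j9 was at 4.56 to 4.96 in MEF, 4.32 at P3 and 4.33 at P20, and 6.15 on pHep, differing by -0.47 ± 0.13 in iHepSCs (adjusted p = 0.0394), which turned to 0.02 under centring on Gapdh. Both falls in iHepSCs were also lost without P3, P20 or MEF replicate 3 or 4. Cyp2b10, the classical target of the receptor CAR, differed little on the probe set used, at 7.06 to 7.39 in MEF, 7.31 at P3 and 7.27 at P20, and 7.93 on pHep. The pHep difference was 0.72 ± 0.16 (adjusted p = 0.0182), while its other probe sets, which are marked as shared by several transcripts, differed by 2.25 and 3.24. Cyp2e1, the ethanol-oxidising enzyme of the adult liver, was not called in any comparison, at 5.52, 5.26, 5.22 and 5.34 in MEF, 5.27 at P3 and 5.22 at P20, and 5.11 on pHep, and its probe set lay under 6 on every array.

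**Figure D4:**
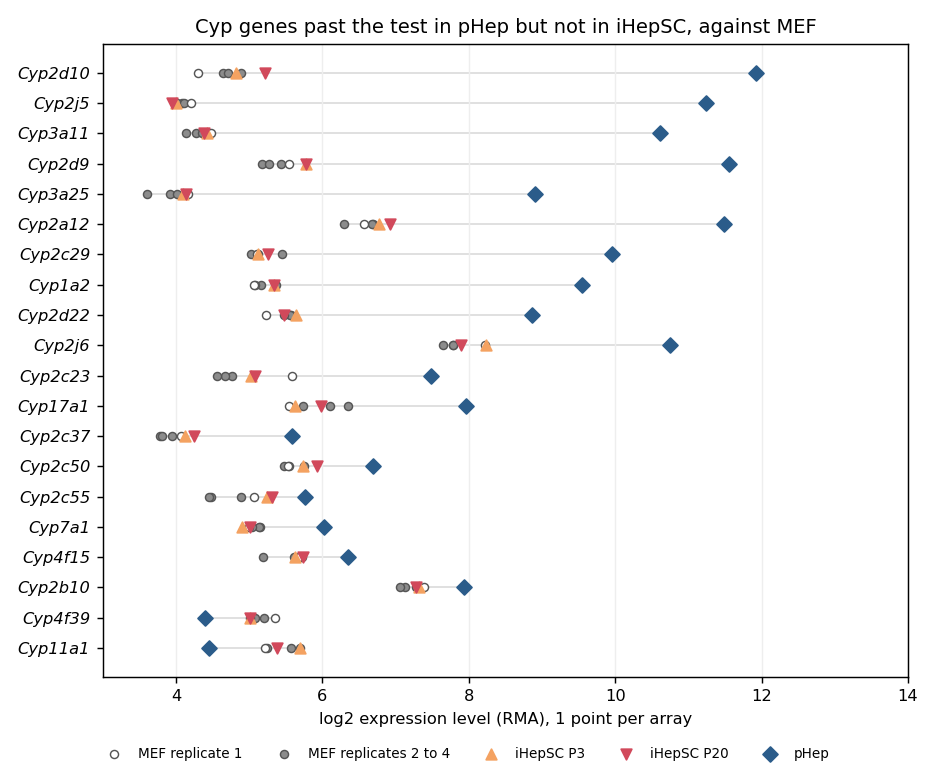
Levels of the 20 Cyp genes called between pHep and MEF but not between iHepSC and MEF, 1 point per array on the log2 scale (horizontal axis), ordered by their pHep difference (rows). The 18 upper genes have the single pHep array above all others, led by Cyp2d10 and Cyp2j5, and both iHepSC arrays lie in or near the MEF range. Cyp4f39 and Cyp11a1, at the bottom, were lower on pHep.

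Family 3 carries out much of the oxidation of drugs and steroids in liver and gut. Its 5 genes split into 1 that rose in iHepSCs, 2 that rose on pHep alone and 2 that were called nowhere. Higher were thus 20% in iHepSCs and 60% on pHep, against 18.2% and 14.8% of all genes. A probe set annotated to both Cyp3a41a and Cyp3a41b is not among the 5, and was above all MEF arrays in iHepSCs, at 5.80 at P3 and 8.71 at P20. Cyp3a13 had the largest rise of the whole family in iHepSCs. Its levels were 4.83, 4.56, 4.44 and 4.51 in MEF, 10.26 at P3 and 9.97 at P20, and 10.93 on pHep. Both iHepSC arrays were far above MEF and slightly below pHep, with a difference of 5.53 ± 0.15, or 46.2-fold, from MEF (adjusted p = 3.09e-06) and of -0.81 ± 0.21 from pHep (adjusted p = 0.0508). Cyp3a11, the main Cyp3a enzyme of adult mouse liver and a target of the receptor PXR, was at 4.48, 4.13, 4.28 and 4.35 in MEF, 4.42 at P3 and 4.39 at P20, and 10.61 on pHep. It was higher on pHep by 6.30 ± 0.16 (adjusted p = 5.59e-06), its iHepSC difference of 0.09 ± 0.12 was not called, and iHepSCs differed from pHep by -6.21 ± 0.17 (adjusted p = 9.79e-06). Cyp3a25 was at 3.60 to 4.16 in MEF, 4.09 at P3 and 4.14 at P20, and 8.91 on pHep, higher on pHep by 4.98 ± 0.21 (adjusted p = 2.89e-05). Cyp3a16 and Cyp3a44 stayed between 3.59 and 4.60 on all arrays.

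The windows before Cyp3a11 and Cyp3a16 show the same HNF4 letters (capitals) in a pair of genes of 1 genomic run with different calls, and are printed side by side.
Cyp3a11: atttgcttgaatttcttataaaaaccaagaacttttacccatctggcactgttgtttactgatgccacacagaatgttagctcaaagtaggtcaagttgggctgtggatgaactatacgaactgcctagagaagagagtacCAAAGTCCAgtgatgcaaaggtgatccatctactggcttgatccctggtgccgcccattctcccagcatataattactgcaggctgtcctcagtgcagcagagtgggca
Cyp3a16: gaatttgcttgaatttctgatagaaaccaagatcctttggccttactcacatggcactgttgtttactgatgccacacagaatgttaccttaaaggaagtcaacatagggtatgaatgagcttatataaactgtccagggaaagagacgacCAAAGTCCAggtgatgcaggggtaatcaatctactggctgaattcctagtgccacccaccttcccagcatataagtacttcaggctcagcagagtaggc
They lie at chr5:145879855-145880104, minus strand, and at chr5:145469724-145469973, minus strand, and the motif begins 109 and 99 bases before the start. Cyp3a11 rose on pHep alone and Cyp3a16 was called nowhere. The probe set of Cyp3a16 stayed between 3.59 and 3.89 on all arrays. At such levels a probe set that reads no transcript and a gene that is not expressed cannot be told apart, so its course is unknown. A part of the motif in either gene was not tested.

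Family 4 hydroxylates fatty acids and eicosanoids at their far end. Of its 13 genes, 3 were higher in iHepSCs and 1 was lower, and on pHep 4 were higher and 1 was lower. In iHepSCs these were 23.1% and 7.69%, against 18.2% and 13.4% of all genes, so that the higher share was close to that background. On pHep they were 30.8% and 7.69%, against 14.8% and 15.5%. Cyp4f14, which inactivates leukotriene B4, rose in both liver-related cells, at 5.03, 4.89, 4.85 and 5.14 in MEF, 8.61 at P3 and 8.88 at P20, and 8.51 on pHep, and differed by 0.24 ± 0.19 between them (adjusted p = 0.461). It was higher by 3.77 ± 0.13 in iHepSCs (adjusted p = 7.89e-06) and 3.53 ± 0.17 on pHep (adjusted p = 4.32e-05). Cyp4f13 was at 6.01 to 6.36 in MEF, 7.76 at P3 and 7.82 at P20, and 8.68 on pHep, a rise of 1.53 ± 0.13 in iHepSCs (adjusted p = 0.000347). Cyp4v3, a fatty acid hydroxylase, was at 8.35, 7.08, 6.99 and 6.74 in MEF, 9.43 at P3 and 9.21 at P20, and 10.54 on pHep, so that MEF replicate 1 was more than 1 above the other MEF arrays. Its rise of 2.03 ± 0.45 in iHepSCs (adjusted p = 0.0166) was lost without P3, P20 or MEF replicate 2 or 3.

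Cyp4a12a, which makes the vasoactive 20-hydroxy derivative of arachidonic acid, was lower in iHepSCs than on every MEF array, by a gap that differed between these. It stood at 6.01, 7.94, 7.81 and 7.68 in MEF, 5.56 at P3 and 5.35 at P20, and 5.96 on pHep, and MEF replicate 1 was close to the liver-related cells. The difference of -1.90 ± 0.56 in iHepSCs (adjusted p = 0.0458) was lost without any 1 of the other arrays of MEF or of iHepSCs, and kept without MEF replicate 1. Cyp4f15 was higher on pHep alone, by 0.80, a call lost without MEF replicate 2 or 4, P3 or P20. Cyp4f39, a skin ceramide enzyme, was lower there by -0.77 ± 0.16 as a signed difference (adjusted p = 0.015).

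Of the genes numbered 7, 8, 27, 39 and 46, which act on cholesterol, oxysterols and bile acids (Cyp27b1, a vitamin D enzyme, falls here by its number), 2 of 7 rose in iHepSCs, 1 fell, and 3 rose on pHep. The rises were 28.6% of this group in iHepSCs and 42.9% on pHep, against 18.2% and 14.8% of all genes. The fall in iHepSCs was 14.3%, close to the 13.4% of all genes. Cyp27a1, the mitochondrial sterol 27-hydroxylase that opens the acidic route to bile acids, was higher in iHepSCs than in either other group. Its levels were 6.21, 6.03, 6.01 and 6.17 in MEF, 11.35 at P3 and 11.70 at P20, and 9.84 on pHep. The difference from MEF was 5.42 ± 0.13, or 42.8-fold (adjusted p = 2.09e-06), and iHepSCs exceeded pHep by 1.69 ± 0.19 (adjusted p = 0.0018). A dim second probe set of it differed by 0.05 from MEF. Cyp39a1, the 7α-hydroxylase of 24-hydroxycholesterol, was at 7.90, 6.05, 6.14 and 5.92 in MEF, 9.77 at P3 and 10.50 at P20, and 12.98 on pHep. MEF replicate 1 stood between the other MEF arrays and the iHepSCs, and the rise of 3.63 ± 0.60 in iHepSCs (adjusted p = 0.00541) was lost without P20, while that of 6.47 ± 0.78 on pHep (adjusted p = 0.00188) held.

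Cyp7b1, the oxysterol 7α-hydroxylase that follows Cyp27a1 in the acidic route, moved the other way. It stood at 7.96, 6.93, 6.46 and 6.78 in MEF, 4.48 at P3 and 4.24 at P20, and 6.23 on pHep. Both iHepSC arrays lay below all others, with a difference of -2.67 ± 0.41 from MEF (adjusted p = 0.00386) and of -1.86 ± 0.58 from pHep, which was not called (adjusted p = 0.083). Cyp7a1, the rate-limiting enzyme of the classical route, stayed at 4.90 at P3 and 5.01 at P20 in iHepSCs against 5.003 to 5.15 in MEF, and rose on pHep to 6.02, by 0.94 ± 0.12 (adjusted p = 0.0027), which was not called under centring on Gapdh. Its second probe set differed by 0.15 on pHep. Cyp8b1, the 12α-hydroxylase needed for cholic acid, was called nowhere, at 5.51 to 5.77 in MEF, 5.58 at P3 and 5.66 at P20, and 5.43 on pHep. Its window is shown as the last of the 6 with the HNF4 letters.
Cyp8b1: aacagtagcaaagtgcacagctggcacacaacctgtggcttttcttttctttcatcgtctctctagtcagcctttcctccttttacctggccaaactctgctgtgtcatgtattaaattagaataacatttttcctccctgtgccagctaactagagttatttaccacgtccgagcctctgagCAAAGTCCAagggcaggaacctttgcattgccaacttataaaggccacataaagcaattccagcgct
It lies at chr9:121916306-121916555, minus strand, with the motif beginning 67 bases before the start.

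Of the 5 steroid hormone genes, 1 rose in iHepSCs and 1 on pHep. Each is 20%, against 18.2% and 14.8% of all genes, so that both shares were close to that background. Cyp17a1, the 17α-hydroxylase, was at 5.54 to 6.34 in MEF, 5.62 at P3 and 5.98 at P20, and 7.97 on pHep, higher on pHep by 2.04 ± 0.32 (adjusted p = 0.00553). Cyp11b2, the aldosterone synthase, differed by 0.41 ± 0.10 in iHepSCs (adjusted p = 0.0241) at levels under 6 on every array, a call lost without P3, P20 or MEF replicate 3 or 4. Cyp11a1, which cuts the cholesterol side chain, was at 4.45 on pHep against 5.21 to 5.70 in MEF, a signed difference of -0.98 ± 0.24 (adjusted p = 0.0263) that was lost without MEF replicate 3. The retinoic acid hydroxylases Cyp26a1 and Cyp26b1 and the vitamin D 24-hydroxylase Cyp24a1 were called in no comparison.

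Cyp51, the lanosterol demethylase of cholesterol synthesis, and Cyp20a1, an orphan enzyme, were bright on all arrays and slightly lower in iHepSCs. Cyp51 was at 10.83, 11.01, 11.19 and 11.005 in MEF, 10.43 at P3 and 10.13 at P20, and 10.66 on pHep, with a difference of -0.73 ± 0.14 in iHepSCs (adjusted p = 0.0105), lost without P20. Cyp20a1 was at 12.14, 12.32, 12.37 and 12.37 in MEF, 11.71 at P3 and 11.86 at P20, and 11.12 on pHep, with a difference of -0.52 ± 0.11 in iHepSCs (adjusted p = 0.0152), lost without P3 or P20, and of -1.18 ± 0.14 on pHep (adjusted p = 0.00197). A second, dimmer probe set of Cyp20a1 differed by -1.90 in iHepSCs and -3.59 on pHep, with MEF replicate 1 at 7.39 and the other MEF arrays at 10.19 to 10.40, and over the mean of all its probe sets the iHepSC difference was -0.99 and was not called (adjusted p = 0.0986 by limma). Neither fall in iHepSCs was called under centring on Gapdh.

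Of the 30 genes called in neither comparison with MEF, 19 lay under 6 on every array, where a probe set that reads no transcript and a gene that is not expressed cannot be told apart. The other 11 were Cyp21a1, Cyp26a1, Cyp26b1, Cyp2b13, Cyp2c38, Cyp2c54, Cyp2d13, Cyp2u1, Cyp46a1, Cyp4b1 and Cyp4f16. Their group included Cyp4b1, which had the widest gap between the passages among the 73 Cyp genes. It was at 5.82, 5.72, 6.18 and 6.15 in MEF, 6.34 at P3 and 8.03 at P20, and 7.08 on pHep.

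Members of a subfamily often stand side by side in the genome, and their calls were set in that order, by RefSeq on GRCm38.p6, with at most 10 other coding genes between neighbours. Beside the counts by run, 18.2% of all genes were higher in iHepSCs and 14.8% on pHep. In the run of 10 Cyp2c genes, 3 were higher in iHepSCs and 7 on pHep. Their order is Cyp2c55, Cyp2c65, Cyp2c29, Cyp2c39, Cyp2c38, Cyp2c68, Cyp2c37, Cyp2c54, Cyp2c50 and Cyp2c70, so that the genes that rose in iHepSCs, Cyp2c65, Cyp2c68 and Cyp2c70, were each apart from the next by other Cyp2c genes. The run of 7 Cyp2d genes was Cyp2d22, Cyp2d10, Cyp2d9, Cyp2d12, Cyp2d34, Cyp2d40 and Cyp2d26. Its first 3 genes were higher on pHep alone, the next pair in iHepSCs alone, Cyp2d40 in neither and Cyp2d26 in both. None of the 5 genes of the Cyp2j run or the 4 of the Cyp3a run was higher in iHepSCs, and 3 and 2 of them were higher on pHep. Cyp3a13 is not in the Cyp3a run, and Cyp2s1 and Cyp2f2 stand at the 2 ends of a run of 8 genes with Cyp2b10, Cyp2b13, Cyp2b9, Cyp2b19, Cyp2g1 and Cyp2a12 between them, none of which was called in iHepSCs. The runs hold only genes read by a probe set of 1 symbol. Left out was a probe set annotated to Cyp3a41a and Cyp3a41b, at 3.73 to 4.13 in MEF, 5.80 at P3 and 8.71 at P20. Another, annotated to Cyp2a4 and Cyp2a5, was at 4.65 to 5.03 in MEF, 6.08 at P3 and 8.46 at P20. These pairs were not placed in the order.

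Base composition before the start is given by group, as a description without a test. The median number of CpG dinucleotides in the 250 bases was 12 over the 7 genes lower in either cell type that had a promoter (4 to 20) and 1.5 over the 14 higher on pHep alone (0 to 4). It was 3 over the 11 higher in both, 2 over the 19 called in neither, and 6 over all genes. The window of Cyp2s1 had 15. The letters TATAAA, searched on the gene's strand only, were in 25% of the Cyp genes and 8.94% of all genes.

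The 2 iHepSC arrays were then compared with each other, as 1 array each and without a test. Of the 73 Cyp genes, 64 differed by less than 0.5 between P3 and P20. Among all genes, 0.214% were higher at P20 by 2-fold or more and 0.324% were lower, and among the 73 Cyp genes 2 were higher and none was lower. These were Cyp4b1, an enzyme known mainly from lung, which went from 6.34 to 8.03, and Cyp1a1, which went from 7.25 to 8.39. Outside the 73 genes, 2 probe sets of several symbols had wider gaps. The one annotated to Cyp3a41a and Cyp3a41b went from 5.80 to 8.71, and the one annotated to Cyp2a4 and Cyp2a5 from 6.08 to 8.46. Of the 27 Cyp genes with a mean of at least 6 in iHepSCs, 25 differed by less than 1. The next largest differences, P20 minus P3, were 0.74 for Cyp39a1, 0.59 for Cyp2c70 and 0.36 for Cyp2u1 upwards. Downwards they were -0.90 for Cyp26b1, -0.67 for Cyp1b1, -0.64 for Cyp2c65, -0.51 for Cyp2f2 and -0.35 for Cyp2j6.

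**Figure D5:**
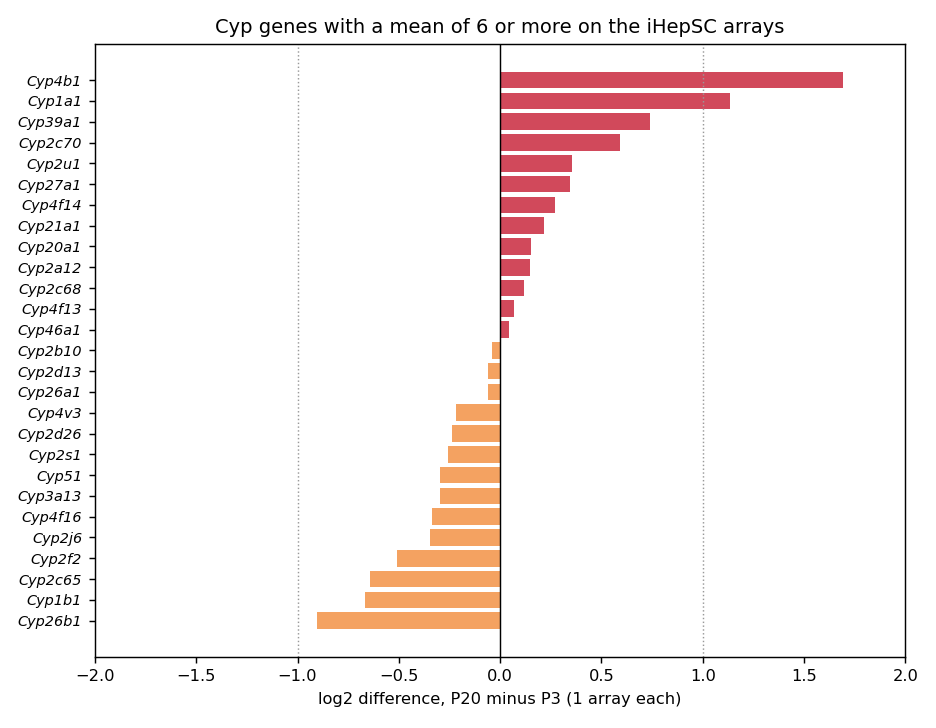
Difference P20 minus P3 on the log2 scale (horizontal axis), from 1 array each, for the 27 Cyp genes with a mean of at least 6 over both iHepSC arrays (rows). The dotted lines mark 2-fold, which Cyp4b1 and Cyp1a1 exceed and 25 genes do not.

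The study names 9 Cyp genes in its tests of hepatocyte function. It reports them by qPCR in hepatocyte-like cells differentiated from iHepSCs, for most of them also after chemical inducers, with staining and activity for Cyp1a2. Here these genes were read on the arrays of the undifferentiated iHepSCs, another cell state and method, so that the counts do not repeat those tests. On pHep 7 of the 9 were higher than in MEF (77.8%, against 14.8% of all genes). In iHepSCs 1 of the 9, Cyp3a13, was higher (11.1%, against 18.2% of all genes), which is not above that background. Cyp1b1 was lower in both, and Cyp2e1 was called in neither. There were 5 of the 9 that were lower in iHepSCs than on pHep (55.6%, against 7.89% of all genes).

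P450 enzymes need electrons from redox partners. Of 5 such genes measured, 3 were higher in iHepSCs and the same 3 on pHep, against 18.2% and 14.8% of all genes. Por, the main electron donor, was not analysed here. Cyb5a, a cytochrome b5 that helps many P450 enzymes, was at 12.51, 11.76, 11.72 and 11.69 in MEF, 14.20 at P3 and 14.19 at P20, and 13.58 on pHep. It rose by 2.28 ± 0.25 in iHepSCs (adjusted p = 0.00104) and by 1.66 ± 0.33 on pHep (adjusted p = 0.0127). Fdx1, the ferredoxin that feeds the mitochondrial enzymes such as Cyp27a1, was at 10.23 to 10.77 in MEF, 11.74 at P3 and 11.997 at P20, and 11.87 on pHep, a rise of 1.45 ± 0.18 in iHepSCs (adjusted p = 0.00163). Cyb5b, the cytochrome b5 of the mitochondrial membrane, rose by 1.14 ± 0.09 in iHepSCs (adjusted p = 0.000195) and by 1.005 ± 0.11 on pHep, but over the mean of all its probe sets the differences were 0.18 and -0.15 and were not called. No difference between iHepSCs and pHep was called for any of the 5.

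Haem is the catalytic centre of every P450. Of 7 genes of its synthesis, 3 were higher in iHepSCs, 4 on pHep, and none was lower in either. Over all genes, 18.2% were higher and 13.4% lower in iHepSCs, and 14.8% and 15.5% on pHep. Alas1, the rate-limiting enzyme of haem synthesis in liver, was at 10.24, 9.46, 9.66 and 9.45 in MEF, 10.99 at P3 and 11.07 at P20, and 11.40 on pHep, a rise of 1.33 ± 0.24 in iHepSCs (adjusted p = 0.00763; lost without P3 or P20) and 1.70 ± 0.31 on pHep (adjusted p = 0.0094). Cpox rose in iHepSCs, by 0.86 ± 0.14 (adjusted p = 0.00512; lost without P20), and was at 8.07 on pHep, within the MEF range of 8.02 to 8.44. Ppox and Urod rose on pHep, by 1.46 ± 0.18 (adjusted p = 0.00199) and 0.92 ± 0.15 (adjusted p = 0.00579), and were lower in iHepSCs than on pHep, which was lost for both without P3 and for Ppox also without P20.

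Among 20 genes that regulate Cyp transcription, 6 were higher and 3 lower in iHepSCs, 9 were higher and 4 lower on pHep, and 8 were lower in iHepSCs than on pHep with none higher. In iHepSCs these were 30% and 15% of the list, against 18.2% and 13.4% of all genes, so that the share of lower genes was close to that background. On pHep 14.8% of all genes were higher and 15.5% lower. Between iHepSCs and pHep, 7.89% of all genes were lower in iHepSCs and 9.26% higher. Hnf4a, 1 of the introduced factors, was at 7.39, 7.51, 7.42 and 7.51 in MEF, 12.07 at P3 and 11.88 at P20, and 13.42 on pHep. Its probe set may read transgene and resident transcripts alike. By qPCR with transgene-specific primers, the study reports both introduced factors as silenced at P3 and P20. On the arrays, Hnf4a differed from MEF by 4.52 ± 0.10 in iHepSCs (adjusted p = 1.66e-06). The probe set used is marked as shared by several transcripts, and without such probe sets the gene was read by a dimmer one that differed by 0.13 in iHepSCs and 0.73 on pHep. Nr1i2, which encodes PXR, was at 5.84, 5.43, 5.35 and 5.56 in MEF, 7.83 at P3 and 8.34 at P20, and 8.67 on pHep, a rise of 2.54 ± 0.20 in iHepSCs (adjusted p = 0.000227). Nr1i3, which encodes CAR, was at 5.24 to 5.34 in MEF and 5.24 on each of the other arrays.

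The bile acid receptor Nr1h4 and the fatty acid receptor Ppara rose part of the way in iHepSCs. Nr1h4 was at 5.22 to 6.09 in MEF, 7.51 at P3 and 7.79 at P20, and 10.83 on pHep, and iHepSCs were below pHep by a signed difference of -3.18 ± 0.36 (adjusted p = 0.00189). Ppara was at 5.10 to 5.46 in MEF, 7.04 at P3 and 7.39 at P20, and 9.84 on pHep. Rxra, their common partner, rose on pHep alone, to 11.13 from 7.97 to 9.19 in MEF, with 8.46 at P3 and 8.51 at P20.

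In the aryl hydrocarbon receptor pathway, Ahr was at 11.65, 9.16, 8.94 and 9.02 in MEF, 10.16 at P3 and 10.01 at P20, and 11.78 on pHep, and was not called. MEF replicate 1 was near the pHep level there and far above the other MEF arrays. Tiparp, a target and repressor of the receptor, was lower in iHepSCs by a signed difference of -0.50 ± 0.10 (adjusted p = 0.0117; lost without P3 or P20, and -0.01 under centring on Gapdh), and lower on pHep by one of -0.94 ± 0.13 (adjusted p = 0.0033; not called under that centring). Ahrr, the receptor's repressor, was at 5.96 to 7.45 in MEF, 5.38 at P3 and 5.25 at P20, and 4.30 on pHep, and was called lower on pHep (adjusted p = 0.0243; lost without MEF replicate 4, P3 or P20). Vdr, the vitamin D receptor, was lower on pHep by a signed difference of -1.37 ± 0.31 (adjusted p = 0.0209; lost without MEF replicate 2 or 3, P3 or P20). Rarb, a retinoic acid receptor, was lower in iHepSCs (5.78 at P3 and 5.52 at P20 against 6.16 to 6.35 in MEF, adjusted p = 0.00872, lost without P20, and a difference of -0.13 that was not called under centring on Gapdh) and higher on pHep, at 7.37 (adjusted p = 0.00319).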

How the data were processed

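The authors deposited log2 expression levels of 45101 probe sets on 7 arrays after RMA (background correction, quantile normalization and summary per probe set), with no version given in the sources used here. Which other arrays were normalized with them is not given either. Control probe sets, 932 probe sets with several symbols and those without a symbol were left out, among them 4 Cyp probe sets with several symbols. For each of the 18193 genes 1 probe set was used, that of the highest mean over the arrays. Of the Cyp genes, 54 had 1 probe set and 19 had more, and 4 were read by a probe set that the design marks as shared (_s_at or _x_at). No filter was applied. All 73 Cyp symbols matched RefSeq (GRCm38.p6) by Entrez gene.

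Groups were taken from the sample titles. In R 4.3.3, limma 3.58.1 (functions lmFit and eBayes, without trend) fitted 1 mean per group over all arrays (4 residual degrees of freedom, prior 2.11, prior standard deviation 0.162), with Benjamini-Hochberg adjustment over all genes and a threshold of 0.05. Errors given with ± are limma standard errors of a difference. The fit was tested on simulated data. P20 and P3 were compared without a test. Promoter windows were searched for exact letters on both strands (TATAAA on the gene's strand). Python 3.11.15, pandas 2.3.3 and matplotlib 3.10.9 made tables and figures.

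The members, gene lists, tests and named genes were chosen with earlier results of these data known. Named are Cyp genes called between iHepSCs and MEF (at most 30), the 9 the study names, the 15 largest rises and 10 largest falls on pHep, the 10 largest each way between iHepSCs and pHep, the 5 largest each way between passages among those averaging 6 or more in iHepSCs, and up to 2 each way per partner or regulator list and comparison. Other genes given with values were chosen after their values were seen. Precision is limited by the number of arrays, which hold no counts. Alternatives were other probe set choices, a filter at 6, quantile normalization again, centring on the median or on 3 Gapdh control probe sets, a trended, robust fit, each replicate left out in turn, averaging MEF replicates 2 to 4, a replicate block, fold floors and the methods' t-test.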

Additional observations from a re-analysis of the deposited data

Results flagged for a closer look

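By Dixon's test, 1 MEF array stood apart from the rest on some Cyp genes, which chance gives in about 1 of 20 groups (5%). This was so for 9 of the 73 Cyp genes (12.3%) and for 23.5% of all genes. MEF replicate 1 was far for Cyp26b1 (7.92, against a mean of 7.22 on the other MEF arrays), Cyp2b13 (6.19 against 5.67), Cyp2s1 (6.82 against 7.67), Cyp2u1 (7.10 against 6.29), Cyp39a1 (7.90 against 6.04) and Cyp4a12a (6.01 against 7.81). MEF replicate 3 was far for Cyp2c65 (4.05 against 4.35) and Cyp4f13 (6.01 against 6.34), and MEF replicate 4 for Cyp2c68 (6.17 against 5.87). Among the redox partners, haem synthesis genes and regulators, MEF replicate 1 was far for Ahr (11.65 against 9.04), Alad (9.78 against 10.59), Cyb5a (12.51 against 11.72), Cyb5r3 (13.09 against 12.00), Dbp (9.71 against 8.19), Fech (10.95 against 10.55), Rxra (9.19 against 8.01), Srebf2 (10.20 against 9.39) and Urod (11.13 against 10.94).

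Outside the gene table, because they carry several symbols, 2 Cyp probe sets were above all MEF arrays in iHepSCs, higher at P20 than at P3, and low on pHep. The first, annotated to Cyp3a41a and Cyp3a41b, was at 4.06, 4.13, 3.73 and 3.93 on MEF replicates 1 to 4, 5.80 at P3, 8.71 at P20 and 4.71 on pHep. The second, annotated to Cyp2a4 and Cyp2a5, was at 4.65, 5.03, 4.96 and 4.83 in MEF, 6.08 at P3, 8.46 at P20 and 5.43 on pHep. Which gene of a pair was read is unknown, and with 1 array at each passage the difference was not tested.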

How the results depend on the processing

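Over 315 log2 differences of Cyp, partner and regulator genes, 4262 of 4638 values under the alternatives kept their side of the threshold, 281 lost the call, 90 gained one and 5 turned. Between iHepSCs and MEF, Cyp2j9 turned to 0.0207, Cyp2r1 to 0.0777 and Rara to 0.1658 under centring on Gapdh, and Nr3c1 to -0.1652 over the mean of all probe sets, which also turned Cyb5b on pHep to -0.1479. The Cyp genes higher in iHepSCs than in MEF (16) numbered 25 under Gapdh centring and 13 to 25 when 1 replicate was left out. Those lower (7) numbered 3 under Gapdh centring, 2 with MEF replicates 2 to 4 averaged as 1 sample, 4 by the methods' t-test after Benjamini-Hochberg, 3 with a floor of 2-fold, and 2 to 10 when 1 replicate was left out. Those higher on pHep than in MEF (32) numbered 29 to 33 with a replicate left out. Those lower (4) numbered 2 with the filter at 6, under Gapdh centring, with MEF replicates 2 to 4 averaged and with a floor of 2-fold, and 3 to 10 with a replicate left out. The Cyp genes higher in iHepSCs than on pHep (7) numbered 4 with the filter, 3 with MEF replicates 2 to 4 averaged, and 3 to 9 with a replicate left out, and those lower (21) 16 to 30. Fewer genes were tested under the filter, and for the other settings the cause was not tested. Levels near the dim end of the array limit what can be said of genes under 6.

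Replicate numbers are shared by MEF and iHepSCs, but are not stated to mean a common batch, and in iHepSCs they stand for the passage. Same-numbered samples deviated by correlations of -0.222 and -0.207. With 2 iHepSC arrays, the deviation of 1 is that of the other with its sign changed. These correlations therefore cannot decide whether the numbers pair the samples. With the replicate number as a block, the counts were 9 higher and 2 lower in iHepSCs than in MEF, 19 and 1 on pHep against MEF, and 1 and 10 for iHepSCs against pHep. Of the 23 calls between iHepSCs and MEF, 11 were kept.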
